A study of Mus musculus with 6 samples.

Results

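The 80 genes described here encode the collagens, the laminins and the integrins of the mouse: 44 collagen chains, 11 laminin chains, 16 integrin alpha chains and 9 integrin beta chains, out of 26264 genes in the expression table. They were chosen by their symbols, with Itgae, Itgal, Itgav and Itgax added by name. Symbols that share the letters and were not taken are Itgad, Itgam, Itgb1bp1, Itgb1bp2, Itgb3bp and Itgbl1. The mice were Gfap-Cre; RiboTag animals, in which cells with a history of Cre driven by the astrocyte gene Gfap carry an HA tag on a ribosomal protein, and both diet groups carried both alleles. The 3 control libraries came from mice on a control diet and the 3 PLX5622 libraries from mice whose diet held PLX5622 at 1200 ppm; each diet lasted 1 month. PLX5622 inhibits Csf1r, the growth factor receptor on which microglia depend. Tagged ribosomes were pulled down from brain homogenate with an antibody to the tag, and the mRNA on them was sequenced without keeping strand. The labels call the libraries of a diet biological replicates and do not say more about the animals, so p-values measure the spread between these libraries. The labels describe the captured cells as astrocytes together with some neurons and oligodendrocytes.

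Levels are in TPM, a measure of transcript abundance scaled by gene length and by library that allows levels of different genes to be compared within a library, and that keeps no record of read depth. Summed over 10 astrocyte markers, levels were 23094 to 32744 TPM in the control and 37258 to 41593 TPM in the PLX5622 libraries. The matching sums were 971 to 1929 TPM for 10 neuronal markers and 2933 to 4312 TPM for 8 oligodendrocyte markers over all libraries. Markers of cells that make much of the collagen and laminin of vessels and meninges summed to less than those of astrocytes. The sums were 4.27 to 8.51 TPM for 11 endothelial markers and 35.8 to 60.4 TPM for 10 mural cell markers. The laminins themselves summed to 47.8 to 75.7 TPM, and the part of these cells in that sum was not tested. The 12 markers of fibroblasts and meninges summed to 366 to 462 TPM, of which Igfbp2 alone gave 334 to 428 TPM. Choroid plexus and ependyma (9 markers) gave 195 to 537 TPM, oligodendrocyte precursors (5 markers) 59.6 to 89.2 TPM, and blood and T cells (9 markers, 3 of them at 0 in all libraries: Hba-a1, Hbb-bs and Ms4a1) 0.550 to 1.53 TPM. Csf1r, a microglial marker, stood at 4.33, 4.27 and 0.118 TPM under the labels control 1 to 3 and at 0.811, 0.0208 and 2.05 TPM under the labels PLX5622 1 to 3. For this transcript the library labelled control 3 therefore lay among the PLX5622 libraries, and the library labelled PLX5622 3 lay above the other PLX5622 libraries. Results by label are for this reason also given without both libraries numbered 3. In such bulk RNA, fewer cells of a type and less RNA per cell cannot be told apart.

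Collagens and laminins are secreted chains that assemble into trimers. Laminins and type IV collagen form the sheets of basement membrane, which in the brain lie beneath astrocyte endfeet around vessels and at the brain surface, whereas other collagens form fibrils, sit on fibrils or span the cell membrane. Integrins are receptors made of 1 alpha and 1 beta chain that bind these proteins and other ligands outside the cell and connect them to the actin cytoskeleton through adaptors inside it. The beta chain Itgb1 pairs with many alpha chains, whereas Itgb5 and Itgb8 pair only with Itgav, and Itgb4 only with Itga6.

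Promoter sequences are shown for the type IV collagen pair Col4a1 and Col4a2, whose protein chains assemble into the same trimer, and for Itgb5, Itgav and Itgb8, the receptor chains with the highest levels or the widest differences below. Each stretch runs from 250 bases before to 50 bases after the annotated start in RefSeq on GRCm38.p6, read 5′ to 3′ on the strand of the gene. The files themselves used build mm39, so these coordinates belong to the RefSeq sequences only. Of the 80 genes, 58 matched such an entry, with 64 windows between them. The Col4a1 window is chr8:11312777-11313076 on the minus strand and the Col4a2 window is chr8:11312555-11312854 on the plus strand. Their annotated starts, 11312826 for Col4a1 and 11312805 for Col4a2, lie 21 bases apart on opposite strands, so the annotated 5′ ends overlap. The 78 bases in capitals are the same DNA read from opposite strands.
Col4a1: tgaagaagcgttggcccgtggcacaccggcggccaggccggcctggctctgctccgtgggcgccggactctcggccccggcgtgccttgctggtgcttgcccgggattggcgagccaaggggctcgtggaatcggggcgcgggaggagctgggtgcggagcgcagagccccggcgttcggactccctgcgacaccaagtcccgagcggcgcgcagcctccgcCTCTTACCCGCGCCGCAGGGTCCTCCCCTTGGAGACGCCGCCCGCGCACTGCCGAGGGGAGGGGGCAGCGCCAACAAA
Col4a2: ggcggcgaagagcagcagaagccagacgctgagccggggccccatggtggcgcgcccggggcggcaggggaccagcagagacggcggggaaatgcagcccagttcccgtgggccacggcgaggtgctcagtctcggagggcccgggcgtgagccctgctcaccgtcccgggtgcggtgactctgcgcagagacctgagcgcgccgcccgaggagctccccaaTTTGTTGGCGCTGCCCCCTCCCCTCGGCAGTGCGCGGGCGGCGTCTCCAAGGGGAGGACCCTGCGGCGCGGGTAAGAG

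The integrin windows are chr16:33829415-33829714 (plus strand) for Itgb5, chr2:83724147-83724446 (plus strand) for Itgav and chr12:119238227-119238526 (minus strand) for Itgb8. Capitals in them mark matches to 3 letter strings searched on both strands: the GC box, GGGCGG, the string CCAAT, and TATAAA, the TATA box; no string lies within another. Itgb5 held 3 GC boxes, Itgav held 1 GC box, and Itgb8 held 1 CCAAT. None of the 3 windows held TATAAA. Among all 32851 windows, 35.7% held a GC box, 37.4% CCAAT and 13.6% TATAAA, against 53.1%, 26.6% and 7.81% of the 64 windows of the collagen, laminin and integrin genes. A match is a description of the letters and not a binding site.
Itgb5: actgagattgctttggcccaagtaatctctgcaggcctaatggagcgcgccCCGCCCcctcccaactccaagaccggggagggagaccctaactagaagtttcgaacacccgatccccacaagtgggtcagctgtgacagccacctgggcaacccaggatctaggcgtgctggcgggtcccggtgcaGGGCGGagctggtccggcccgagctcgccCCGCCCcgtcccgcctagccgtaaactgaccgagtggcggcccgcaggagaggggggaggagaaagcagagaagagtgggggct
Itgav: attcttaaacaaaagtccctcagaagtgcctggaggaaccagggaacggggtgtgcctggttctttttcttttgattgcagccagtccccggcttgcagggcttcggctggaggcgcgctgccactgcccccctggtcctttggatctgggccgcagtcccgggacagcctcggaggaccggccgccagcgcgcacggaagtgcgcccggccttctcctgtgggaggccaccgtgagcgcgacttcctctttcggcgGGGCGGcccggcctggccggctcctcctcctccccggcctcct
Itgb8: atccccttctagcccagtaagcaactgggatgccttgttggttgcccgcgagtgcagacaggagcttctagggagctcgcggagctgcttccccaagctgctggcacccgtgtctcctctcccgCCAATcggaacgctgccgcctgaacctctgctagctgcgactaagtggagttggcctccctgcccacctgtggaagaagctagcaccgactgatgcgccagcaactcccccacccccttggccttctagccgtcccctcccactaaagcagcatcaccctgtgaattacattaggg

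Of the 80 genes, 79 had a level above 0 in at least 1 library and 27 averaged 1 TPM or more: 12 collagens, 5 laminins, 6 alpha chains and 4 beta chains. The mean reached 10 TPM for 9 genes, which in falling order were Itgb5, Itgb1, Lamb2, Itgav, Col9a3, Col11a2, Itga6, Itga7 and Col16a1. The mean was under 0.1 TPM for 18 genes, 5 genes were at 0 in some libraries, and Itgb2l was at 0 in all. Beta chains carried the largest sum, at 165 to 272 TPM in the control and 293 to 304 TPM in the PLX5622 libraries. The collagens summed to 79.5 to 113 and 94.0 to 127 TPM, the alpha chains to 50.1 to 79.7 and 84.4 to 101 TPM, and the laminins to 47.8 to 71.4 and 57.7 to 75.7 TPM. The ranges of the 2 diets did not meet for either kind of integrin chain and overlapped for collagens and laminins.

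**Figure D1:**
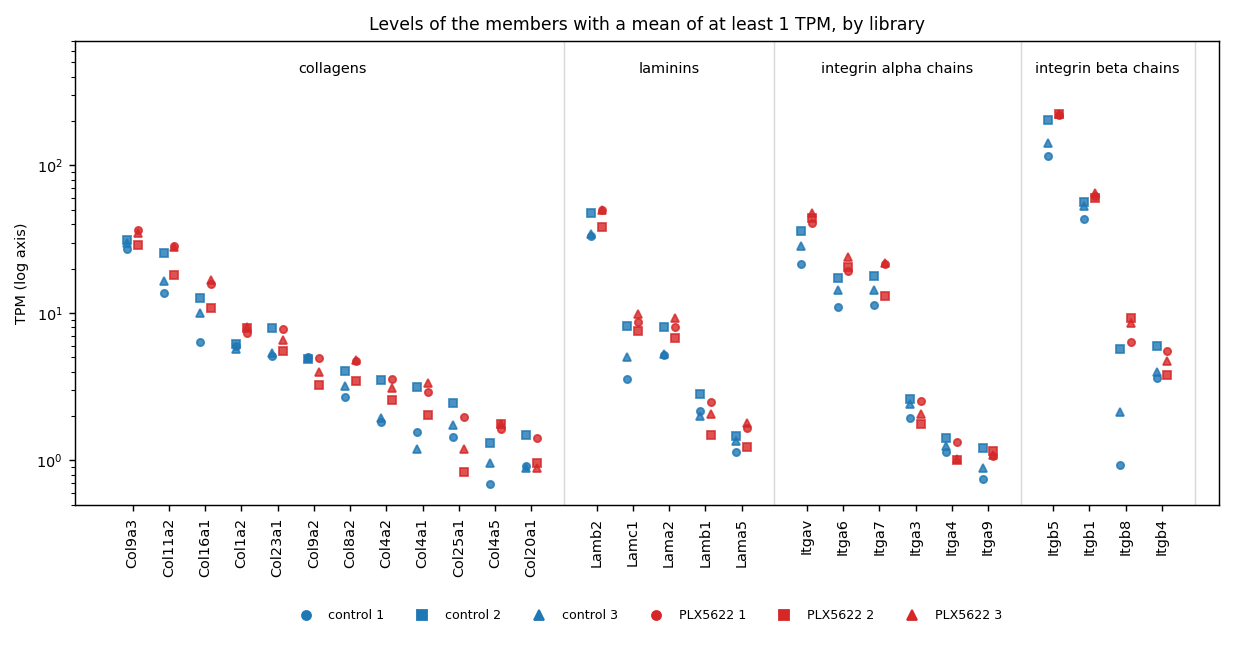
TPM on a log axis for the 27 genes that averaged 1 TPM or more, 1 point per library, with control libraries in blue and PLX5622 libraries in red and the replicate number as the symbol. Itgb5 lies highest in every library, and each family has 1 to 3 chains that lie well above the rest.

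Among the beta chains, Itgb5, a chain of a vitronectin receptor, was at 115, 202 and 143 TPM in control libraries 1 to 3 and at 218, 224 and 224 TPM in PLX5622 libraries 1 to 3. The PLX5622 libraries lay close together and above all controls, with control 2 nearest to them. Itgb5 made up 69.9% to 75.4% of the summed beta chains of a library. Itgb1, the chain shared by most receptors for laminin and collagen, was at 43.3, 56.6 and 53.0 TPM in the control and 62.2, 59.7 and 65.4 TPM in the PLX5622 libraries. Again no control reached the lowest PLX5622 library, and the gap between the groups was small. Itgb1 accounted for 20.1% to 26.3% of the beta chain sum.

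Itgb8, which with Itgav forms a receptor that activates latent TGF-beta, was at 0.934, 5.66 and 2.12 TPM in the control and 6.38, 9.24 and 8.50 TPM in the PLX5622 libraries. Its highest library lay 9.89-fold above its lowest, the widest spread of the 27 genes, and the controls differed among themselves more than the PLX5622 libraries did. The mean was 2.91 ± 2.46 TPM on control diet and 8.04 ± 1.49 TPM on PLX5622 (SD, n = 3 each). Itgb4, the partner of Itga6 in epithelia, was at 3.60 to 5.97 TPM in the control and 3.78 to 5.56 TPM in the PLX5622 libraries, so its groups overlapped. The remaining beta chains stayed below 1 TPM in every library. Itgb7, a chain of lymphocyte receptors, ranged from 0.317 to 0.894 TPM over the 6 libraries, and Itgb3, a chain of the platelet fibrinogen receptor, from 0.210 to 0.628 TPM.

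Itgav, the alpha chain that pairs with Itgb5 and Itgb8, was at 21.4, 36.2 and 28.3 TPM in control libraries 1 to 3 and at 40.6, 44.1 and 47.7 TPM in PLX5622 libraries 1 to 3. Its order across libraries resembled that of Itgb5, with control 1 lowest and control 2 nearest to the PLX5622 group. The ratio of Itgav to Itgb5 within a library stayed between 0.179 and 0.213, a spread of 1.19-fold, while Itgb5 itself spread 1.95-fold and Itgav 2.23-fold. Itgb8 did not keep such a ratio: its level relative to Itgav was 0.0437, 0.157 and 0.0749 in the control and 0.157, 0.210 and 0.178 in the PLX5622 libraries. That is a spread of 4.80-fold, and the highest control and the lowest PLX5622 library were nearly level. A ratio as steady as that of Itgav to Itgb5 was not particular to partner chains. Relative to the summed astrocyte markers of the same library, Itgav spread 1.24-fold and Itga6 1.195-fold.

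Laminin receptors made up most of the other alpha chains. Itga6 was at 11.0, 17.2 and 14.4 TPM in the control and 19.1, 20.4 and 23.8 TPM in the PLX5622 libraries, without overlap. Itga7, which pairs with Itgb1, was at 11.3, 17.8 and 14.4 TPM in the control and 21.6, 13.0 and 21.8 TPM in the PLX5622 libraries. Here the library labelled PLX5622 2 fell among the controls and the groups overlapped. Within a library, the level of Itga6 relative to Itgb1 was 0.255 to 0.304 in the control and 0.307 to 0.364 in the PLX5622 group, and that of Itga7 relative to Itgb1 was 0.218 to 0.346 over all 6. Itgav, Itga6 and Itga7 made up 42.7% to 52.2%, 21.3% to 24.1% and 15.4% to 24.1% of the alpha chain sum. Itga3, another laminin receptor chain, was at 1.93 to 2.61 TPM in the control and 1.78 to 2.55 TPM in the PLX5622 libraries. Itga4, which binds Vcam1 and fibronectin, was at 1.15 to 1.41 and 1.01 to 1.33 TPM, and both of these chains overlapped between the diets. Itga9, a chain of a receptor for tenascin and Vcam1, was at 0.745 to 1.21 TPM over all 6 libraries, and the other 10 alpha chains averaged under 1 TPM.

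**Figure D2:**
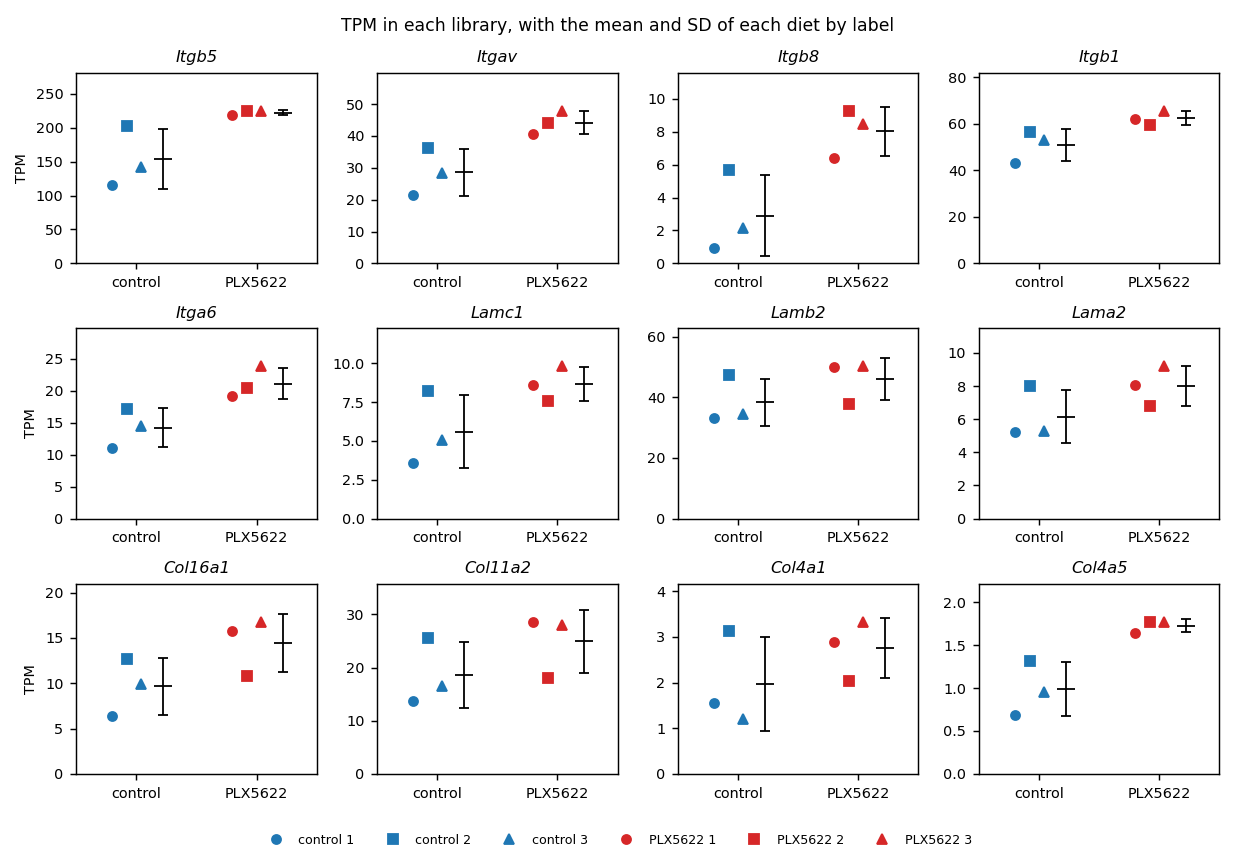
TPM in each library for 12 genes, in panels with their own linear axis from 0, with the mean and SD of the 3 libraries of each diet beside the points. Itgb5, Itgav, Itgb8, Itgb1, Itga6 and Col4a5 do not overlap between the diets, whereas Lamc1, Lamb2, Lama2, Col16a1, Col11a2 and Col4a1 do.

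Leukocyte integrin chains were close to 0. Itgb2, the common beta chain of leukocyte integrins, was at 0.414, 0.428 and 0.0939 TPM in control libraries 1 to 3 and at 0.107, 0.0138 and 0.121 TPM in PLX5622 libraries 1 to 3. As with Csf1r, the library labelled control 3 lay among the PLX5622 libraries, and the library labelled PLX5622 3 was the highest of its group. Itgal, the alpha chain of a lymphocyte integrin, ranged from 0.0241 to 0.140 TPM, and Itgax, a chain of dendritic cells and activated microglia, was at 0 in 3 libraries and at most 0.0424 TPM. The 10 microglial markers summed to 35.1 to 108 TPM in the control and 28.5 to 50.1 TPM in the PLX5622 libraries, with Cx3cr1, C1qb and Fcrls at 0 in PLX5622 2. Their part in the Itgb2 values was not tested.

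Among the laminins, 1 chain of each type led. Lamb2, the beta chain found in vessel and synaptic basement membranes, was at 33.1, 47.4 and 34.5 TPM in the control and 50.1, 38.0 and 50.2 TPM in the PLX5622 libraries. The groups overlapped because control 2 lay above PLX5622 2. Lamb2 gave 65.7% to 69.2% of the laminin sum. Lamc1, the gamma chain of most laminins, was at 3.55, 8.20 and 5.05 TPM in the control and 8.63, 7.59 and 9.79 TPM in the PLX5622 libraries. Lama2, the alpha chain known from astrocytes and muscle, was at 5.22, 8.01 and 5.26 TPM in the control and 8.04, 6.79 and 9.18 TPM in the PLX5622 libraries. In both, control 2 lay above PLX5622 2, and the other controls lay below every PLX5622 library.

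Lama2 kept a nearly fixed proportion to Lamb2, at 0.152 to 0.183 within a library, a spread of 1.20-fold. Relative to Lamc1 it was at 1.47, 0.977 and 1.04 in the control and 0.931, 0.894 and 0.938 in the PLX5622 libraries, and the PLX5622 values were all lower. Lamb1, the beta chain of many embryonic and vascular laminins, was at 2.00 to 2.84 TPM in the control and 1.48 to 2.47 TPM in the PLX5622 libraries. Lama5, an alpha chain of vascular and epithelial laminins, was at 1.14 to 1.46 and 1.23 to 1.79 TPM. Chains known from epithelia were low: Lama3 averaged 0.947 and Lamb3 0.346 TPM over the 6 libraries. The endothelial alpha chain Lama4 averaged 0.428 TPM, Lamc3 0.133 TPM and Lama1 0.0826 TPM.

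The collagens with the highest levels were chains of fibril-associated and fibrillar types. Col9a3, a chain of fibril-associated type IX collagen, was at 27.3, 31.3 and 29.8 TPM in the control and 36.4, 28.9 and 34.6 TPM in the PLX5622 libraries. It had the smallest spread of the 27 genes, with 1.33-fold between its lowest and highest library. Its partner chains were far lower: Col9a2 was at 4.85 to 5.02 TPM in the control and 3.26 to 4.98 TPM in the PLX5622 libraries, and Col9a1 at 0.334 to 0.788 TPM over all 6. The level of Col9a2 relative to Col9a3 was 0.155 to 0.184 in the control and 0.113 to 0.137 in the PLX5622 libraries, without overlap.

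Col11a2, a chain of fibrillar type XI collagen, was at 13.7, 25.5 and 16.5 TPM in the control and 28.6, 18.1 and 28.0 TPM in the PLX5622 libraries. Its partner chain Col11a1 was at 0.218 to 0.609 TPM, or 0.0151 to 0.0295 of the Col11a2 level. Col16a1, a fibril-associated collagen, was at 6.38, 12.6 and 9.93 TPM in the control and 15.7, 10.8 and 16.8 TPM in the PLX5622 libraries. For Col11a2 and Col16a1, as for the laminins, the groups overlapped through control 2 and PLX5622 2. Col1a2, a chain of the main fibrillar collagen of connective tissue, was at 5.93, 6.16 and 5.68 TPM in the control and 7.31, 7.95 and 8.03 TPM in the PLX5622 libraries. Both groups were tight and did not overlap. Its partner Col1a1 was at 0.108 to 0.156 of the Col1a2 level, and type III collagen, Col3a1, averaged 0.0984 TPM.

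Type IV collagen was low. Col4a1 was at 1.56, 3.14 and 1.20 TPM in the control and 2.90, 2.04 and 3.33 TPM in the PLX5622 libraries. Col4a2, transcribed from the opposite strand of the shared stretch printed above, was at 1.83, 3.49 and 1.93 TPM in the control and 3.55, 2.55 and 3.10 TPM in the PLX5622 libraries. Each had control 2 well above the other controls, and the ratio of Col4a1 to Col4a2 ranged from 0.624 to 1.07. Col4a5, a chain of a second type IV network, was at 0.691, 1.32 and 0.955 TPM in the control and 1.64, 1.77 and 1.77 TPM in the PLX5622 libraries, without overlap. Its head-to-head neighbour on the X chromosome, Col4a6, whose start lies 1343 bases away, was at 0.130 to 0.319 of the Col4a5 level. Col4a4 averaged 0.176 TPM and Col4a3 0.0520 TPM.

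The remaining collagens at or above 1 TPM spanned several structural kinds. Among the membrane-spanning collagens, Col23a1 was at 5.07 to 7.85 TPM in the control and 5.55 to 7.77 TPM in the PLX5622 libraries. Col25a1, a membrane-spanning collagen known from neurons, was at 1.45, 2.43 and 1.74 TPM in the control and 1.96, 0.836 and 1.20 TPM in the PLX5622 libraries. The library labelled PLX5622 1 fell among the controls, while the other PLX5622 libraries lay below all of them. Col8a2, a short-chain collagen, was at 2.69 to 4.04 and 3.47 to 4.79 TPM. Col20a1, a fibril-associated collagen, was at 0.888 to 1.49 TPM over all 6 libraries. The other 32 collagens had a mean under 1 TPM.

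The study set the diets against each other to ask about cholesterol metabolism, and the same contrast was read here for the collagen, laminin and integrin genes. No collagen, laminin or integrin passed the test by label: with limma on log2(TPM + 1), 0 of the 27 tested genes had an adjusted p under 0.05, as did 0% of all 13084 genes tested. Before adjustment, 8 of the 27 had p under 0.05 with a higher level on PLX5622, against 14.7% of all tested genes, and 0 of the 27 with a lower level, against 8.02%. The 8 were Itgb8, Itgav, Col4a5, Itga6, Itgb5, Col1a2, Lamc1 and Col16a1. In 7 of the 27 every PLX5622 library lay above every control, against 19.4% of tested genes, and in 0 of the 27 every PLX5622 library lay below, against 9.39%. The median difference, PLX5622 minus control on the log2 scale, was 0.29 over the 27 and 0.09 over all tested genes, and 21 of the 27 were positive against 61.1% of all. By family the median was 0.43 for beta chains, 0.29 for collagens, 0.27 for laminins and 0.23 for alpha chains.

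Itgb8 had the largest difference, 1.39 ± 0.37 (log2, ± SE, adjusted p = 0.205). Itgav differed by 0.64 ± 0.18, Itgb5 by 0.57 ± 0.19 and Itga6 by 0.55 ± 0.17, each with the same adjusted p of 0.205. The common laminin gamma chain Lamc1 differed by 0.61 ± 0.24 (adjusted p = 0.205) and Col16a1 by 0.56 ± 0.24 (adjusted p = 0.213). On this scale, which understates changes of low genes, Col4a5 differed by 0.47 ± 0.14 and Col1a2 by 0.34 ± 0.13. With 0.1 in place of 1 added to TPM, the difference of Col4a5 was 0.79. That was above Itgav at 0.65 and Lamc1 at 0.70 in the same fit, while Col1a2 was at 0.38. The difference of Itgb1 was 0.29 ± 0.13 with an adjusted p of 0.222. Several basement membrane chains with overlapping groups had intervals that included 0. The 95% interval was −0.15 to 0.91 for Col4a1, −0.16 to 0.72 for Col4a2, −0.12 to 0.66 for Lamb2 and −0.07 to 0.76 for Lama2. For Lamc1, whose groups overlapped too, the interval was 0.07 to 1.14.

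On the lower side, Col25a1 differed by −0.31 ± 0.20 (adjusted p = 0.333), Col9a2 by −0.24 ± 0.15 (adjusted p = 0.337) and Lamb1 by −0.16 ± 0.17 (adjusted p = 0.555). The differences of Itga4 and Itga3 were −0.10 ± 0.13 and −0.08 ± 0.15. None of these intervals excluded 0. The difference of Itga7 was 0.34 ± 0.22, that of Col11a2 0.42 ± 0.24, that of Col8a2 0.31 ± 0.17 and that of Col9a3 0.17 ± 0.13, with adjusted p between 0.280 and 0.438. For Lama5, Col23a1 and Itgb4 the differences were 0.14 ± 0.14, 0.12 ± 0.18 and 0.05 ± 0.19.

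**Figure D3:**
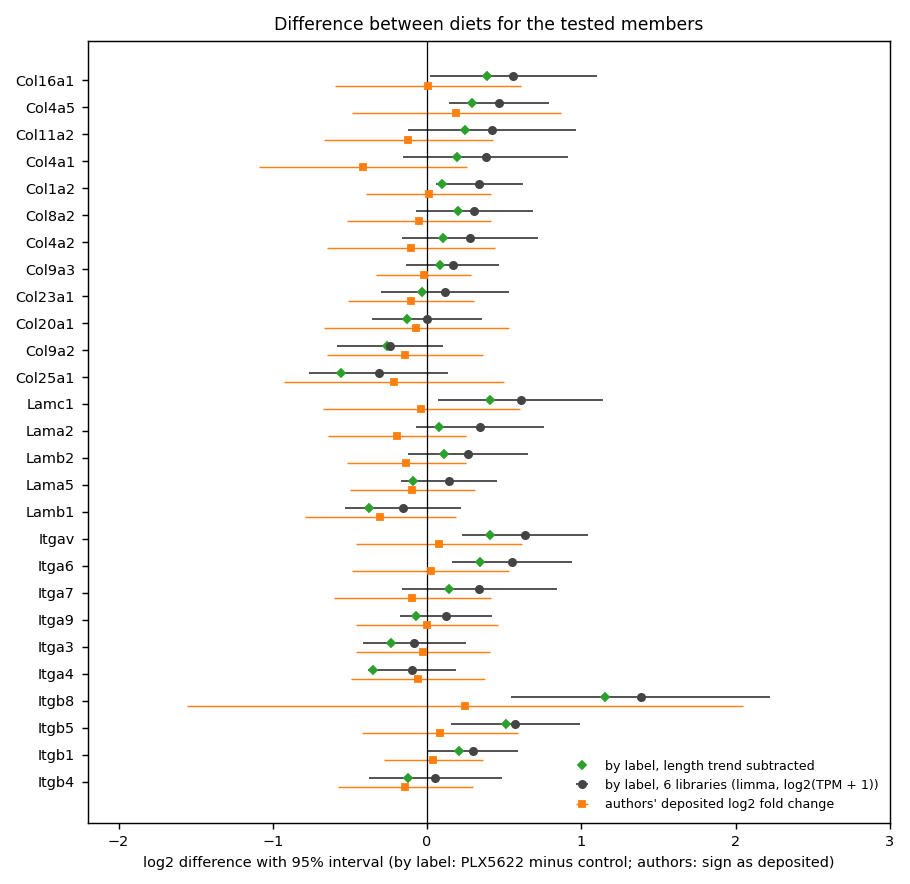
Log2 differences for the 27 tested genes: by label from limma (grey circles, bars are 95% intervals), by label after the length trend was subtracted (green diamonds), and the authors' deposited log2 fold change (orange squares, bars are 95% intervals). By label most collagen, laminin and integrin genes lie above 0, with Itgb8 farthest at 1.39, whereas the deposited values lie around 0.

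Among the 52 genes that had a level above 0 but a mean under 1 TPM, which were not tested, every PLX5622 library lay above every control for 4, against 4.14% of all such genes, and below for 3, against 6.73%. The 4 were Col1a1, Col5a1, Col5a2 and Col11a1, which are fibrillar collagen chains. Other fibrillar chains under 1 TPM, namely Col2a1, Col3a1, Col5a3, Col24a1 and Col27a1, overlapped between the diets. Col1a1 was at 0.841, 0.665 and 0.728 TPM in the control and 1.14, 0.905 and 0.941 TPM in the PLX5622 libraries. The lower genes included the laminin chains Lamb3 and Lamc3, of which Lamb3 was at 0.403, 0.528 and 0.452 TPM in the control and 0.277, 0.204 and 0.214 TPM in the PLX5622 libraries. The read depth behind these values is unknown.

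A few libraries shaped these differences. Control 2 was the highest control in 26 of the 27 tested genes, against 58.5% of all tested genes, and control 1 was the lowest in 22, against 68.4% of all. The library labelled PLX5622 2 was the lowest of its diet in all 5 tested laminins and in 9 of 12 collagens, and in 5 of the 10 tested integrin chains, against 40.0% of all tested genes. Without control 2, 12 of 26 genes passed at an adjusted p under 0.05, all with higher levels on PLX5622, and so did 19.9% of all tested genes in that direction. They were Itgb8, Itgb5, Itgav, Itga6, Lamc1, Lama2, Lamb2, Col11a2, Col16a1, Col4a1, Col4a2 and Col4a5. In that fit the difference was 1.87 for Itgb8, 0.88 for Lamc1, 0.82 for Itgav, 0.79 for Itgb5 and 0.69 for Itga6. Without control 1, the lowest control for most of these genes, the differences were smaller, at 0.97 for Itgb8, 0.37 for Lamc1, 0.45 for Itgav, 0.39 for Itgb5 and 0.39 for Itga6, and 0 of 28 genes passed. In that fit Col16a1 differed by 0.32, Itgb1 by 0.18 and Col4a5 by 0.36. The median over the tested genes was 0.43 without control 2 and 0.18 without control 1.

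Without both libraries numbered 3, 0 of 28 genes passed, against 0.107% of all genes, and 1, Itgb8, had p under 0.05 before adjustment in the higher direction, against 2.43%. In that fit with 2 libraries a diet, Itgb8 differed by 1.28, Itgav by 0.59, Itgb5 by 0.53 and Itga6 by 0.49, close to the values from all 6 libraries. Col4a1, Lama2 and Lamb2 had smaller differences in that fit, at 0.08, 0.16 and 0.14. Col4a2 at 0.17, Lama5 at 0.085, Lamc1 at 0.49 and Lamb1 at −0.25 also lay below their values from all 6 libraries. Col4a5 changed little, at 0.45 against 0.47. The median over the 28 genes was 0.15, and 0.10 over all genes.

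Gene length went with the libraries, and its correlations overlapped between the diets through control 2 and PLX5622 2. Over 12794 genes, Spearman correlation of exon length with how far a library departed from the 6-library mean was −0.46, 0.28 and −0.49 in controls 1 to 3 and 0.34, 0.22 and 0.44 in PLX5622 libraries 1 to 3. Genes are not independent, and this is a description of the libraries. The tested collagens, laminins and integrins are long, with a median exon length of 7015 bases against 4420.5 for all tested genes. The 3038 tested genes at least that long had a median difference of 0.23. Spearman correlation of the diet difference with exon length was 0.44 over the 12794 genes and 0.11 over the 27. After a smooth trend on length was subtracted from each library, the median was 0.11 over the 27 genes and 0.01 over all. In that fit 17 of the 27 were positive, against 51.8% of all genes. Before adjustment, 7 then had p under 0.05 with higher levels, against 13.1% of all genes, and 3 with lower levels, against 10.3%.

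After that subtraction the differences stood at 1.16 for Itgb8, 0.51 for Itgb5, 0.41 for Itgav and 0.34 for Itga6, and at 0.20 for Itgb1 and 0.14 for Itga7. The other integrin chains were at −0.07 for Itga9, −0.13 for Itgb4, −0.23 for Itga3 and −0.35 for Itga4, and the median of the alpha chains was 0.04, with 3 of 6 positive. Lamc1 stood at 0.41 and Col4a5 at 0.29, while Lama2 was at 0.08, Lamb2 at 0.11 and Col1a2 at 0.10. The 3 genes on the lower side were Col25a1 at −0.56, Lamb1 at −0.38 and Itga4 at −0.35. No gene passed after adjustment.

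Astrocyte markers differed in the same direction as 8 of the 10 tested integrin chains, the exceptions being Itga3 and Itga4. All 10 markers were higher on PLX5622 by label, 9 of them with p under 0.05 before adjustment, and neither their summed ranges nor those of the integrin chains met between the diets. Set against the summed astrocyte markers of the same library, Itgb5 was at 4.99, 6.16 and 5.04 TPM per 1000 TPM of markers in the control and 5.85, 5.46 and 5.38 in the PLX5622 libraries. Itgav was at 0.926, 1.10 and 0.999 in the control and 1.09, 1.07 and 1.15 in the PLX5622 libraries on this scale. Both thus overlapped between diets once expressed relative to this sum, and Itga6 (0.478 to 0.525 and 0.496 to 0.571) and Itgb8 (0.0405 to 0.173 and 0.171 to 0.225) did too. Aldoc and Glul gave most of the sum, so the scale mainly follows these 2 markers. They were at 8644 and 8676 of 23094 TPM in control 1, and at 12215 and 18183 of 41061 TPM in PLX5622 2.

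Of the 27 genes on that scale, 18 overlapped. Only Col4a5 had every PLX5622 library above every control, against 0.634% of all tested genes. It was at 0.0299, 0.0403 and 0.0337 TPM per 1000 TPM of markers in the control and 0.0439, 0.0432 and 0.0425 in the PLX5622 libraries. For 8 every PLX5622 library lay below every control, against 62.3% of all tested genes: Itgb1, Itga3, Itga4, Itga9, Lama5, Lamb1, Col9a2 and Col25a1. Neuronal markers differed in the other direction, with 10 of 10 lower by label, at 1530 to 1929 TPM in the control and 971 to 1518 TPM in the PLX5622 libraries. Endothelial markers, of which 2 of 11 reached the test, summed to 6.39 to 8.51 TPM in the control and 4.27 to 5.81 TPM in the PLX5622 libraries. The part of cell mixture in the differences between diets was not tested.

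**Figure D4:**
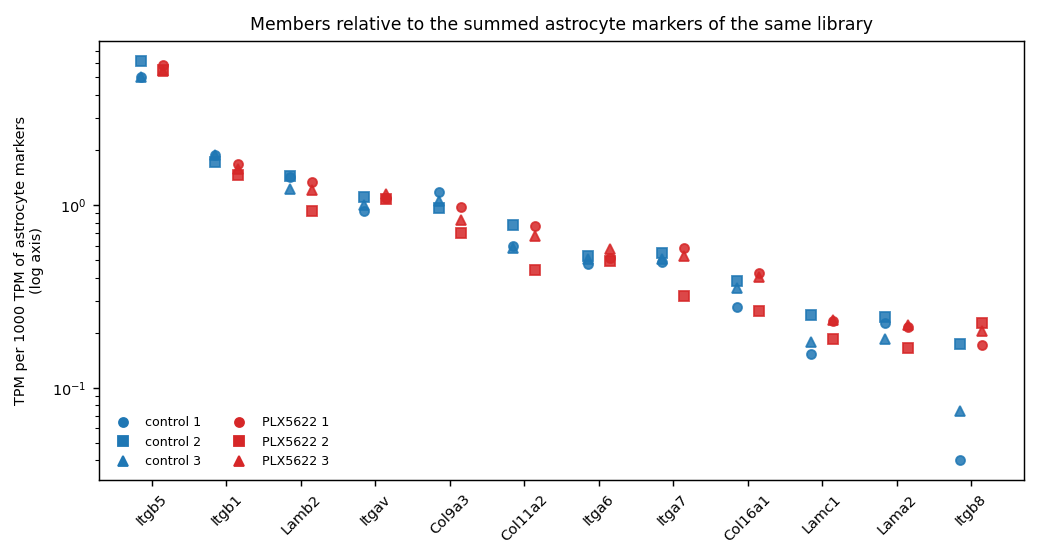
Level of 12 genes per 1000 TPM of the 10 summed astrocyte markers of the same library, on a log axis, with 1 point per library. Itgb5 lies between 4.99 and 6.16 in all 6 libraries, Itgb8 spreads widest, and of the 12 only Itgb1 separates the diets, with the PLX5622 libraries lower.

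Genes that work with these families were read from the same fit in 5 lists, and 0 passed the test in any list. Their counts before adjustment stand against the 14.7% of tested genes with higher and 8.02% with lower levels given above. Of 9 tested basement membrane partners 6 had p under 0.05 before adjustment with higher levels and 0 with lower, with a median difference of 0.40. The calcium-binding matrix protein Sparc differed by 0.68 ± 0.17 and its relative Sparcl1 by 0.67 ± 0.20. Of 21 genes for collagen folding and crosslinking, 6 were higher and 0 lower by the same rule, with a median of 0.20. The prolyl hydroxylase subunit P4hb differed by 0.47 ± 0.18 and the isomerase Ppib by −0.14 ± 0.14, so the 2 most abundant genes of this list pointed in opposite directions.

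The dystroglycan complex, the other laminin receptor of astrocyte endfeet, had 15 tested genes, of which 8 were higher and 0 lower, with a median of 0.33. The dystrobrevin Dtna, a scaffold of this complex, differed by 0.59 ± 0.16. Of 23 adaptors of integrin activation and adhesion, 10 were higher and 0 lower, with a median of 0.37. Fermt2, a kindlin that activates integrins, differed by 0.65 ± 0.20, and the docking protein Bcar1 by 0.39 ± 0.32. Of 13 other integrin ligands, 4 were higher and 1 lower, with a median of 0.30. Mfge8, a secreted ligand of Itgav receptors, differed by 0.38 ± 0.14, and Vcam1, a ligand of Itga4, by 0.37 ± 0.14.

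Without both libraries numbered 3, fewer genes of these lists had p under 0.05 before adjustment. With higher levels the counts were 0 of 9 basement membrane partners, 0 of 21 folding and crosslinking genes, 2 of 15 of the dystroglycan complex, 3 of 23 adaptors and 0 of 13 other ligands, against 2.43% of all genes. With lower levels they were 0, 0, 0, 1 and 1, against 1.66% of all genes. Bcar1 differed by 0.77 in that fit. After the length trend was subtracted, 5, 5, 8, 6 and 3 genes of the 5 lists had p under 0.05 before adjustment in either direction, against the 13.1% higher and 10.3% lower of all genes given above.

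The authors' deposited table gives their own comparison, from counts, and does not name its numerator. When its log2 fold changes were regressed on the deviations of the 6 libraries from each gene's mean, over 13196 genes whose baseMean was 50 or more, the weights were −0.49, −0.47 and 0.54 for the libraries labelled control 1 to 3. The weights were 0.43, 0.37 and −0.38 for those labelled PLX5622 1 to 3. In the authors' deposited table the library labelled control 3 thus counts with PLX5622 1 and 2, and the library labelled PLX5622 3 with control 1 and 2. Its values are therefore not a second measurement of the difference by label.

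Among all entries of the authors' deposited table, 0 of 79 genes of these families had an adjusted p under 0.05, against 0.0698% of all genes, and 2 had p under 0.05 before adjustment, against 0.847%. The smallest adjusted p among the 79 in the authors' deposited table was 1.00. The 2 genes were Itgb2, at −2.30 ± 0.81 (log2 fold change ± SE), and Col8a1, at 0.88 ± 0.39 in the authors' deposited table. Col8a1, a short-chain collagen, was at 0.156, 0.219 and 0.359 TPM in control libraries 1 to 3 and at 0.451, 0.284 and 0.198 TPM in PLX5622 libraries 1 to 3. The libraries with higher Col8a1 were thus control 3, PLX5622 1 and PLX5622 2, and by label the groups overlapped. Itgb3, Lamc3 and Itgb7 followed in the authors' deposited table, at −0.72 ± 0.37, −0.79 ± 0.45 and −0.69 ± 0.41.

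The integrins that differed most by label were near 0 there: the authors' deposited table gives 0.08 ± 0.26 for Itgb5, 0.08 ± 0.28 for Itgav, 0.25 ± 0.92 for Itgb8 and 0.02 ± 0.26 for Itga6. For basement membrane chains it gives −0.42 ± 0.34 for Col4a1, −0.13 ± 0.20 for Lamb2, −0.19 ± 0.23 for Lama2 and −0.04 ± 0.33 for Lamc1, all in the authors' deposited table. Of the 11 laminins 10 were negative in the authors' deposited table, as were 51 of the 79 genes, against 10770 of all 20062 genes. The median there was −0.08 over the 79 and −0.02 over all 20062 genes.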

How the data were processed

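The 6 brain RiboTag libraries are given in an expression table and a comparison table. TPM values per gene were made and deposited by the authors. The submitters' processing notes name the aligner STAR 2.7.10a, the counter featureCounts of Subread 2.0.1, DESeq2 1.32.0 under R 4.1.0, and build mm39; the annotation is not given in the sources used here. Per the file headers, the second table holds the authors' log2 fold changes and standard errors, a statistic (a score), raw and adjusted p-value columns, and baseMean, a signal of mean normalized counts.

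TPM holds no depth, so no counting interval is given. Diets were compared by limma 3.58.1 (R 4.3.3) with a trended empirical Bayes step on log2(TPM + 1); genes had to average 1 TPM or more; p was two-sided and adjusted over all tested genes (Benjamini-Hochberg), with a threshold of 0.05. Differences on this scale understate changes of low genes. Intervals are 95%. The length trend was a loess with span 0.5 on exon lengths of GENCODE vM21 (GRCm38), which all 80 genes matched, as did 95.1% of the table. The limma test, without the length step, was run on simulated data. These had independent noise for each gene and library, and lacked the differences between libraries that many genes share here.

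The genes and lists were chosen with earlier results of these data known. Genes named with values are, per family, the 8 with the highest mean, the 5 with the smallest p in each direction and in the deposited table, type IV collagens, leukocyte chains and laminin classes, and from each other list the 2 with the highest mean; others were chosen after their values were seen. Some genes that this rule takes are not reported here. Alternatives covered the pseudocount, filters, scaling, length, a replicate block and left-out libraries.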

Additional observations from a re-analysis of the deposited data

How the results depend on the processing

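No collagen, laminin or integrin passed the adjusted threshold with a pseudocount of 0.1, without a filter, at a mean of at least 5 TPM, with size factors, after subtraction of the length trend, with the replicate block or without both libraries numbered 3. Leaving out single libraries gave 0 to 12 called genes of these families and 0 to 3754 called genes in all; the upper values came without control 2, and 36 genes were called without PLX5622 1. Without both libraries numbered 3, 14 genes were called in all. The count with p under 0.05 before adjustment was 8 by label, 17 of 79 without a filter, 1 without both libraries numbered 3, and 4 to 16 when single libraries were left out; the cause was not tested. The median was 0.29 by label, 0.035 without a filter, where 52 genes under 1 TPM enter, and 0.18 (without control 1) to 0.43 (without control 2) when single libraries were left out. Of 25 named tested genes, 21 kept their sign under the settings run. Itgb4 turned to −0.018 with size factors, −0.13 after length subtraction and −0.016 without both libraries numbered 3, and ranged from −0.066 to 0.23 when single libraries were left out. Col23a1 turned to −0.034 and Lama5 to −0.091 after length subtraction. Itga3 ranged from −0.18 to 0.00075 when single libraries were left out. The labels do not say that replicate numbers pair the samples. Libraries with the same number had deviations correlated at −0.03, −0.27 and −0.15, which cannot settle pairing with 3 libraries a diet. The replicate block gave 0 called genes and 6 with p under 0.05 before adjustment. Genes under 1 TPM are limited by depth, which TPM does not show.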
